A study of Mus musculus with 12 samples.

Results

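The Kruppel-like factors are zinc finger transcription factors, and 10 of their genes, Klf2, Klf3, Klf4, Klf5, Klf6, Klf7, Klf9, Klf10, Klf11 and Klf13, were followed here through 3 sorted fractions of mouse spermatogonia and whole testes. The members were taken by name: every probe of the array that carried 1 of these 10 gene names, which gave 12 probes of 55681 and 10 genes of 36315. The rule uses names alone, and the 10 genes were proposed with earlier results of these data known. RNA of 12 samples, 3 in each group, was labelled with 1 dye and hybridised to Agilent mouse gene expression arrays. All groups came from C57BL/6 mice aged 10 to 11 weeks.

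GFRα1+ spermatogonia were the GFP-positive cells of GFRα1-EGFP knock-in mice, and each of their samples came from 1 mouse. NGN3+ and KIT+ spermatogonia both came from Ngn3-EGFP transgenic mice and were split by surface KIT: NGN3+ cells were GFP-positive without KIT, with 2 mice pooled in each sample, and KIT+ cells were positive for both, with 1 mouse in each sample. GFP outlasts Ngn3 transcription in that line, so the KIT+ gate takes cells by a fluorescence that persists. Whole testes came from wild-type littermates of the knock-in line. The GFRα1+ and NGN3+ fractions therefore differed in mouse line as well as in cell state, and the effects of line and state cannot be told apart.

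The family shares a carboxy-terminal DNA-binding domain of zinc fingers that reads GC-rich and CACCC elements, while the amino-terminal parts differ and recruit different partners. Klf2, Klf4, Klf5, Klf6 and Klf7 are mostly known as activators that work with histone acetyltransferases. Klf3 recruits the CtBP corepressors, and Klf9, Klf10, Klf11 and Klf13 recruit the Sin3 corepressor. In germ cells and stem cells the family is best known through Klf4, a reprogramming factor that in the testis is associated with postmeiotic germ cells and Sertoli cells, and through Klf2 and Klf5, which share tasks with Klf4 in embryonic stem cells.

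A level below is the log2 processed signal of a probe minus the 75th percentile of its array, so a level of 0 is the brightness of that percentile. Probes differ in how strongly they bind, and levels are therefore compared between groups for 1 gene and never between genes. Differences are log2 ratios with the standard error of limma's moderated fit, and a difference passed when its Benjamini-Hochberg adjusted p, over all genes tested, was under 0.05. All 10 genes were well above background on all 3 arrays of every sorted group, so all 10 were tested in each comparison. In whole testes 9 of the 10 were well above background on all 3 arrays, and Klf11 was so on 0 of 3.

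On each array 50.1 to 65.1% of probes were well above background, and no spot was saturated. By group the share was 50.1 to 50.8% in GFRα1+, 59.5 to 65.1% in NGN3+, 54.8 to 62.0% in KIT+ and 54.8 to 57.65% in whole testes. Gfra1 fell from GFRα1+ to NGN3+ cells by 2.87 ± 0.14 (SE, adjusted p = 1.92e-06), Neurog3 rose at the same step by 1.10 ± 0.21 (adjusted p = 0.00271), and Kit rose from NGN3+ to KIT+ cells by 2.58 ± 0.25 (adjusted p = 0.000137), all in limma's fit. The arrays lay on 3 slides: slide 1 held GFRα1+ samples 1 and 2 and whole testes 1, slide 2 held GFRα1+ sample 3 with all NGN3+ and KIT+ samples, and slide 3 held the other two whole testes. Markers of other cells also moved between the fractions. Of 25 spermatid genes, 24 rose and 1 fell from GFRα1+ to NGN3+ cells, where 20% and 36.4% of all genes did. Their summed level ran from 6.49 to 7.05 in GFRα1+, 10.6 to 10.9 in NGN3+, 10.9 to 11.3 in KIT+ and 12.9 to 13.1 in whole testes on the log2 scale.

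**Figure D1:**
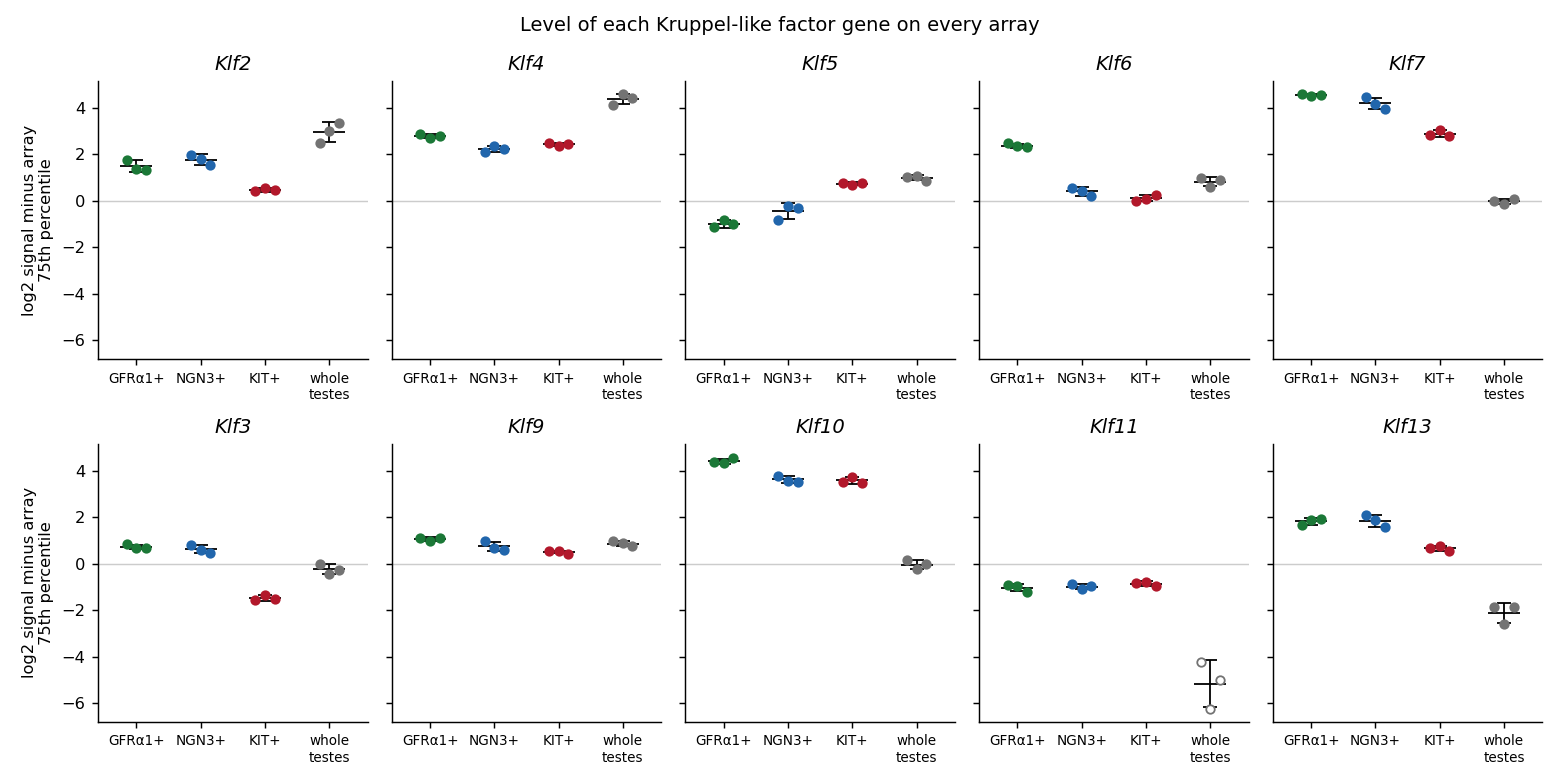
Level of each of the 10 genes on every array, as log2 signal minus the array's 75th percentile, with 1 panel a gene, 1 point an array, and the group mean with SD (n = 3). Open points are arrays of a group in which the probe was not well above background on all 3 arrays, as for Klf11 in whole testes. Klf6 dropped between GFRα1+ and NGN3+, Klf3 between NGN3+ and KIT+, and Klf7, Klf10, Klf11 and Klf13 had their lowest levels in whole testes.

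The activators had 5 different courses. Klf6, an early-response factor induced on tissue injury, stood at 2.47, 2.36 and 2.30 on the 3 GFRα1+ arrays and at 0.57, 0.42 and 0.22 on the NGN3+ arrays. It stood at -0.0032, 0.094 and 0.26 on the KIT+ arrays and at 0.98, 0.61 and 0.88 in whole testes. Every GFRα1+ array thus lay above all other arrays, and the KIT+ and NGN3+ arrays overlapped. The order of the means was GFRα1+ at 2.38 ± 0.09 (SD, n = 3), whole testes at 0.82 ± 0.19, NGN3+ at 0.40 ± 0.17 and KIT+ at 0.12 ± 0.14, and only the last neighbours did not differ past the threshold.

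Klf7, a factor of developing neurons, stood at 4.58, 4.52 and 4.56 on the GFRα1+ arrays and at 4.45, 4.16 and 3.97 on the NGN3+ arrays. On the KIT+ arrays it stood at 2.81, 3.07 and 2.79, and in whole testes at -0.011, -0.14 and 0.073. No pair of groups overlapped. The means were 4.56 ± 0.03 (SD, n = 3) in GFRα1+, 4.20 ± 0.24 in NGN3+, 2.89 ± 0.15 in KIT+ and -0.025 ± 0.11 in whole testes, and the difference between the first 2 groups missed the threshold.

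Klf2, which holds lymphocytes in quiescence and responds to flow in endothelium, stood at 1.78, 1.37 and 1.33 in GFRα1+ and at 1.99, 1.78 and 1.53 in NGN3+ cells. It stood at 0.42, 0.55 and 0.45 in KIT+ cells and at 2.50, 3.01 and 3.34 in whole testes. Whole testes lay above every sorted array and KIT+ cells below every other array, while the GFRα1+ and NGN3+ arrays overlapped.

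Klf4 stood at 2.87, 2.72 and 2.79 in GFRα1+ cells, at 2.10, 2.35 and 2.25 in NGN3+ cells and at 2.50, 2.36 and 2.44 in KIT+ cells, against 4.14, 4.59 and 4.43 in whole testes. Its sorted range was narrow, with a difference of 0.56 between the highest and the lowest sorted mean. Whole testes were above all sorted arrays.

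Klf5, an activator of proliferating epithelia, was higher in KIT+ than in GFRα1+ cells, where the rest of its branch was lower. It stood at -1.14, -0.82 and -1.01 in GFRα1+ cells, -0.83, -0.21 and -0.29 in NGN3+ cells, 0.78, 0.68 and 0.77 in KIT+ cells and 1.01, 1.09 and 0.88 in whole testes. The GFRα1+ and NGN3+ arrays overlapped by 1 array of NGN3+, and KIT+ cells lay above both. The means of -0.99 ± 0.16 (SD, n = 3), -0.44 ± 0.34, 0.74 ± 0.06 and 0.99 ± 0.11 put the groups in the order of GFRα1+, NGN3+, KIT+ and whole testes, and the last neighbours did not differ past the threshold. The listed genome span of its probe (mm9, chr14:99702656-99712388) is longer than the probe, so the probe crosses at least 1 intron.

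Among the corepressor-binding genes, Klf3, the CtBP partner, stood at 0.83, 0.67 and 0.66 in GFRα1+ cells and at 0.81, 0.59 and 0.48 in NGN3+ cells. It stood at -1.57, -1.34 and -1.53 in KIT+ cells and at -0.011, -0.44 and -0.30 in whole testes. The first 2 groups overlapped, whole testes lay below both, and KIT+ cells were lowest on every array.

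Klf10, also known as TGFβ-inducible early gene 1, stood at 4.38, 4.32 and 4.52 in GFRα1+ cells and at 3.78, 3.56 and 3.52 in NGN3+ cells. It stood at 3.51, 3.74 and 3.48 in KIT+ cells and at 0.16, -0.25 and -0.030 in whole testes. GFRα1+ cells were highest on every array, the NGN3+ and KIT+ arrays overlapped, and whole testes were lowest.

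Klf13, a factor known from its activation of Ccl5 in T cells, stood at 1.64, 1.89 and 1.94 in GFRα1+ cells and at 2.09, 1.86 and 1.58 in NGN3+ cells. It stood at 0.67, 0.76 and 0.53 in KIT+ cells and at -1.88, -2.61 and -1.87 in whole testes. The first 2 groups overlapped, and KIT+ cells lay between them and whole testes. A second Klf13 probe, at chr7:71032482-71032541 (mm9), is listed in the opposite coordinate order from the main one at chr7:71082854-71082913, and its means were 0.30, 0.11, -0.99 and -3.12 in the same order of groups.

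Klf11, the relative of Klf10, passed in no comparison of the sorted fractions, with -0.94, -0.95 and -1.21 in GFRα1+, -0.90, -1.09 and -0.98 in NGN3+ and -0.83, -0.80 and -0.98 in KIT+ cells. In whole testes it was not well above background on any array, with measured levels of -4.23, -6.26 and -4.99. Klf9, which glucocorticoid and thyroid hormone induce, had the smallest range of group means among the members, with means of 1.06 ± 0.08 (SD, n = 3), 0.74 ± 0.20, 0.50 ± 0.06 and 0.86 ± 0.09 in GFRα1+, NGN3+, KIT+ cells and whole testes. Its second probe, at chr19:23243231-23243290 (mm9), was well above background on 1 of the 12 arrays and gives no order of the groups.

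From GFRα1+ to NGN3+ spermatogonia, the first step of the comparison within A undiff spermatogonia, 4 of the 10 genes fell, 1 rose and 5 did not pass. Klf6 fell by 1.97 ± 0.12 (SE, n = 3 against 3, limma adjusted p = 4.81e-06), which is 3.93-fold. Klf10 fell by 0.79 ± 0.12 (1.73-fold, adjusted p = 0.000739) and Klf4 by 0.56 ± 0.10 (1.47-fold, adjusted p = 0.00207). Only 1.1% of all genes tested had a lower ratio than Klf6, and 13.2% were below Klf10 and 24.2% below Klf4. Over all 23796 genes tested, 36.4% fell and 20% rose, so the members' counts lay near the background. The arrays of 5 members did not overlap between the groups, where 62.6% of all genes had no overlap, and the median ratio of all genes was -0.19 against -0.21 for the median of the members' ratios. The split of calls over all genes depended on the scaling: 4768 rose and 8657 fell here, while 5942 rose and 5937 fell when each array was scaled to the 75th percentile of the probes bright on all 12 arrays, which moved the median ratio of all genes to -0.0087.

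Klf9 fell by 0.32 ± 0.12 (adjusted p = 0.0484) and Klf5 rose by 0.55 ± 0.17 (adjusted p = 0.0241) at the same step. Both calls were weak. With the slide as a block the ratio of Klf9 was -0.37 (adjusted p = 0.132) and that of Klf5 was 0.57 (adjusted p = 0.108), and the mean of both Klf9 probes gave 0.026 (adjusted p = 0.930). Klf7, with a ratio of -0.36 ± 0.14 (adjusted p = 0.0535), and Klf2, with 0.27 ± 0.16 (adjusted p = 0.174), did not pass. The fall of Klf7 passed in 3 of 18 alternatives. These were all 12 arrays in the fit (limma adjusted p = 0.0388), the filter on both groups (0.0421) and leaving out NGN3+ sample 1 (0.0139). Klf3, Klf11 and Klf13 had ratios of -0.094, 0.042 and 0.019, with 95% intervals of -0.37 to 0.18, -0.22 to 0.31 and -0.32 to 0.36. Within slide 2 GFRα1+ cells have 1 array, which is assumed to vary like the NGN3+ and KIT+ arrays that alone supply the spread. There Klf6 had a ratio of -1.89 (adjusted p = 0.000481), Klf10 of -0.90 (adjusted p = 0.00901) and Klf4 of -0.56 (adjusted p = 0.0336).

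Klf6 was the member that fell most at this step, and the 250 bases before its start are shown for that reason, from the RefSeq promoter table of build GRCm38.p6 at chr13:5861239-5861488, plus strand. Capitals mark each GGGCGG or CACCC element on either strand, the letters of the GC box and of the family's own core.

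Klf6: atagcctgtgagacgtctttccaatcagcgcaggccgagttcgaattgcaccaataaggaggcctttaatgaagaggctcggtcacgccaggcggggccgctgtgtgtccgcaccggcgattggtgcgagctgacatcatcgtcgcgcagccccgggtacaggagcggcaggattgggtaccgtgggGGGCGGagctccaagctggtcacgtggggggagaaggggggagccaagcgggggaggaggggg

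This window holds 1 GC box and no CACCC, and none of TGACGTCA, TGANTCA or GCGTGGGCG, the letters of the CRE, AP-1 and EGR elements. In all 32851 promoter windows of the same length and on both strands, GGGCGG was found in 32.7%, CACCC in 52%, TGACGTCA in 1.55%, TGANTCA in 6.75% and GCGTGGGCG in 0.536%.

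From NGN3+ to KIT+ spermatogonia, the step at which cells leave A undiff for differentiation, Klf3 fell by 2.11 ± 0.12 (SE, n = 3 against 3, 4.31-fold, limma adjusted p = 1.93e-05). Klf7 fell by 1.30 ± 0.14 (2.47-fold, adjusted p = 0.000225), Klf2 by 1.29 ± 0.16 (2.45-fold, adjusted p = 0.000459) and Klf13 by 1.19 ± 0.15 (2.28-fold, adjusted p = 0.000508), and Klf5 rose by 1.19 ± 0.17 (2.28-fold, adjusted p = 0.000986). All NGN3+ and KIT+ arrays lay on 1 slide, and in each of these 5 genes the groups did not overlap.

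In all, 4 of 10 members fell, 1 rose and 5 did not pass. Of the 24115 genes tested, 17% fell and 17.5% rose. The arrays of 7 members did not overlap, where 50.5% of all genes had no overlap, and the median ratio was 0.048, against -0.26 over the members. Klf3 had a lower ratio than all but 2.1% of genes, Klf7 and Klf2 each had 5.7% of genes below them and Klf13 6.5%, whereas 97.4% of genes lay below Klf5. Whether the second Klf13 probe, listed in the opposite coordinate order, reads the same transcript was not tested. It fell by 1.10 in the fit over all probes. Of those that did not pass, Klf6 had a ratio of -0.29 (95% interval -0.57 to -0.0015), Klf9 of -0.24 (-0.52 to 0.036), Klf10 of -0.044 (-0.32 to 0.23), Klf11 of 0.12 (-0.14 to 0.39) and Klf4 of 0.20 (-0.037 to 0.44).

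The promoters of the 4 members that fell together at this step are shown as they stand in the same table, each the 250 bases before the start, 5′ to 3′ along the gene, with the same capitals. Klf2 is at chr8:72318812-72319061, plus strand, Klf3 at chr5:64803271-64803520, plus strand, Klf7 at chr1:64121390-64121639, minus strand and Klf13 at chr7:63938916-63939165, minus strand.

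Klf2: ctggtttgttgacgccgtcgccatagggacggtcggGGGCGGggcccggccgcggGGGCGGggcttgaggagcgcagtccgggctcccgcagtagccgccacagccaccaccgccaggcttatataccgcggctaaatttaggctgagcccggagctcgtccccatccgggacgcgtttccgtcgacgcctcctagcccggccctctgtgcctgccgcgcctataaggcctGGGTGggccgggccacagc

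Klf3: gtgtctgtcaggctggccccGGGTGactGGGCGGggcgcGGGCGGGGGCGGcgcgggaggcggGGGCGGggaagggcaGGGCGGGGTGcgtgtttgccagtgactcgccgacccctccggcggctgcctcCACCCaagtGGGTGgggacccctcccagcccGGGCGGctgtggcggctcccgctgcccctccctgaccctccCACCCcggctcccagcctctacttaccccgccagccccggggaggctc

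Klf7: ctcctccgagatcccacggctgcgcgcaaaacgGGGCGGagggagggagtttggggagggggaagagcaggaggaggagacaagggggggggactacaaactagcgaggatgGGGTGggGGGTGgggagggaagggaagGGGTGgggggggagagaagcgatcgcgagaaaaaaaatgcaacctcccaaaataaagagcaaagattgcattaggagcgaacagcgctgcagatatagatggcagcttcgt

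Klf13: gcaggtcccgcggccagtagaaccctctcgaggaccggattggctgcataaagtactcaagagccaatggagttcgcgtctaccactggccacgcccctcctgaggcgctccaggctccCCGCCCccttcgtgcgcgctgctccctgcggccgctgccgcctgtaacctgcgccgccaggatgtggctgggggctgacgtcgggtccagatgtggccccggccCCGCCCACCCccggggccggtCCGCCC

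Klf3 had 5 CACCC and 6 GGGCGG matches, Klf7 3 and 1, Klf13 1 and 3, and Klf2 1 and 2, so each of the 4 held both elements. The table held promoters for 8 of the 10 members, not for Klf5 and Klf10. CACCC was found in 5 of the 8, with Klf9 the other one, and GGGCGG in 7 of the 8, all but Klf9. The members' windows had 59.2 to 78.4% G and C, with a median of 71.4%, against a median of 52.4% over all windows, and both elements are themselves rich in G and C. TGANTCA was found in Klf9 alone, and TGACGTCA, AGGTCA and TATAAA in none of the 8.

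**Figure D2:**
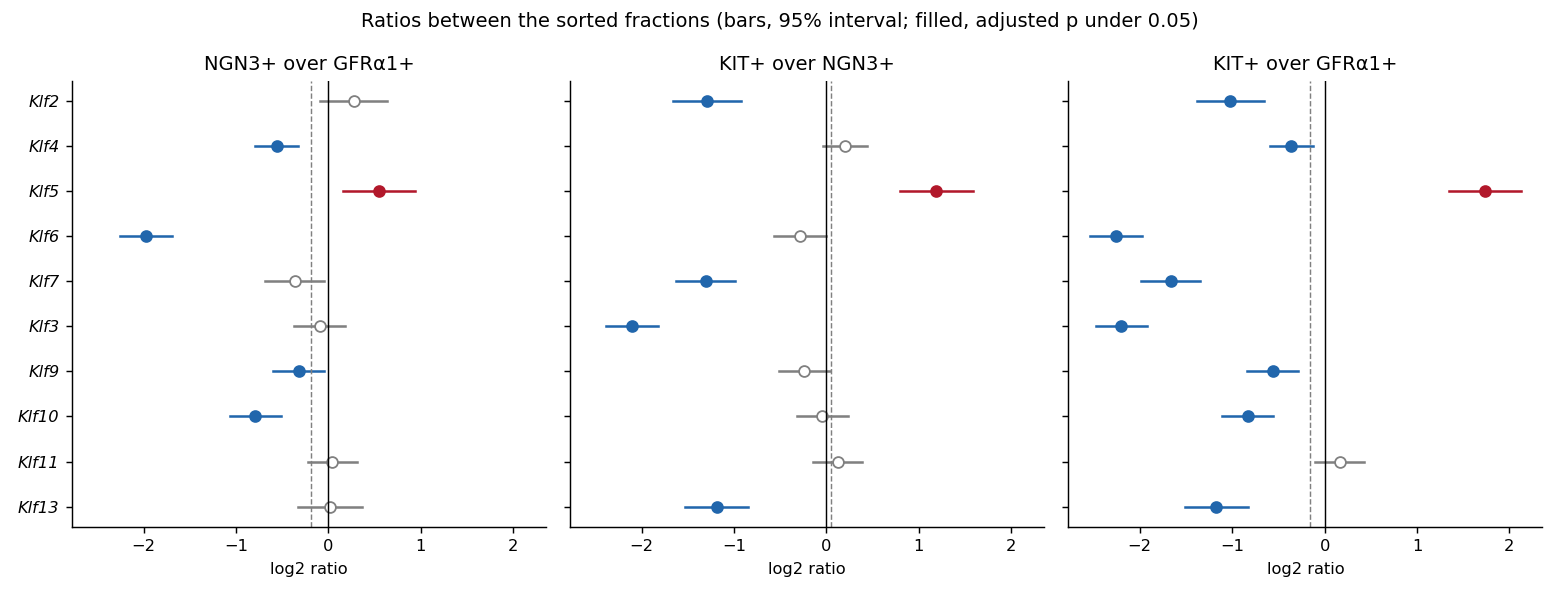
Log2 ratio of each gene between the sorted fractions with its 95% interval, from limma's fit of the 9 sorted arrays (n = 3 in each group). Filled points passed an adjusted p under 0.05, red for higher and blue for lower, and open grey points did not; the dashed line is the median ratio of all genes tested. Klf6, Klf10, Klf4 and Klf9 are blue at the first step, Klf3, Klf7, Klf2 and Klf13 at the second.

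The steps were compared with each other in the same fit, as the second ratio minus the first, a contrast chosen after the values had been seen. It passed for 7 of the 10 members, in a background of 41.7% of 24218 genes. Klf6, Klf4 and Klf10 fell more at the first step, with differences of 1.69 ± 0.22 (SE, limma adjusted p = 0.000636), 0.76 ± 0.18 (adjusted p = 0.00998) and 0.75 ± 0.21 (adjusted p = 0.0206). Klf3, Klf2, Klf13 and Klf7 fell more at the second, with differences of -2.01 ± 0.21 (adjusted p = 0.0003), -1.57 ± 0.28 (adjusted p = 0.00274), -1.21 ± 0.26 (adjusted p = 0.00674) and -0.94 ± 0.24 (adjusted p = 0.0145). The steps of Klf5 did not differ past the threshold (0.64 ± 0.30, adjusted p = 0.117), nor did those of Klf9 (0.082) and Klf11 (0.081). That of Klf4 lost the threshold with scaling to the bright probes (0.53, adjusted p = 0.0598) and that of Klf7 within slide 2 (-0.94, adjusted p = 0.0571). The difference of Klf10 lost it with quantile normalization (0.42, adjusted p = 0.0704), under normexp (0.51, adjusted p = 0.0627) and without NGN3+ sample 3 (0.65, adjusted p = 0.0796), and those of Klf10 and Klf7 did so without NGN3+ sample 2 (adjusted p = 0.0920 and 0.0521).

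Across both steps, from GFRα1+ to KIT+ cells, 8 of the 10 members fell and Klf5 rose, where 39.5% of 23006 genes fell and 26.6% rose. The arrays of 9 members did not overlap, against 70.3% of all genes. Klf6 fell by 2.26 ± 0.12 (SE, limma adjusted p = 1.03e-06), Klf3 by 2.20 ± 0.12 (adjusted p = 1.07e-06) and Klf7 by 1.67 ± 0.14 (adjusted p = 1.05e-05). Klf13, Klf2 and Klf10 fell by 1.17, 1.02 and 0.83, and Klf9 and Klf4 by 0.56 and 0.36. Klf5 rose by 1.74 ± 0.17 (adjusted p = 2.80e-05), and Klf11, with 0.16 ± 0.12, did not pass. The fall of Klf4 was the least certain of these: its ratio was -0.13 under normexp (adjusted p = 0.296), -0.22 with scaling to the bright probes (adjusted p = 0.108), -0.24 with quantile normalization (adjusted p = 0.0733) and -0.36 with the slide as a block (adjusted p = 0.0778). That of Klf9 rested on its main probe, since the mean of both its probes gave -0.044 (adjusted p = 0.874).

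The immediate early and stress genes were followed beside the family because Klf2, Klf4, Klf6 and Klf10 are themselves known as early-response genes. From GFRα1+ to NGN3+ cells 18 of the 25 tested fell and 1, Hspa1a, rose, where 36.4% and 20% of all genes did. Their median ratio was -0.88 against -0.19 for all genes. Egr2 fell by 3.88, Fos by 3.73, Ier3 by 3.07 and Ier2 by 2.07, all with non-overlapping arrays, as had 62.6% of all genes. Klf6, Klf10 and Klf4 fell at the same step as these genes, whereas Klf2 had a ratio of 0.27 that did not pass, and of 0.46 (adjusted p = 0.0332) with scaling to the probes bright on all 12 arrays. From NGN3+ to KIT+ cells 9 of 23 fell and 3 rose, where 17% and 17.5% of all genes did. The median ratio of these early and stress genes was -0.13 there, against 0.048 for all genes. Egr1 fell by 3.31, Egr4 by 2.75, Egr2 by 2.22 and Hspa1a by 2.19. The part of the early and stress genes in the course of the Klf genes was not tested.

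**Figure D3:**
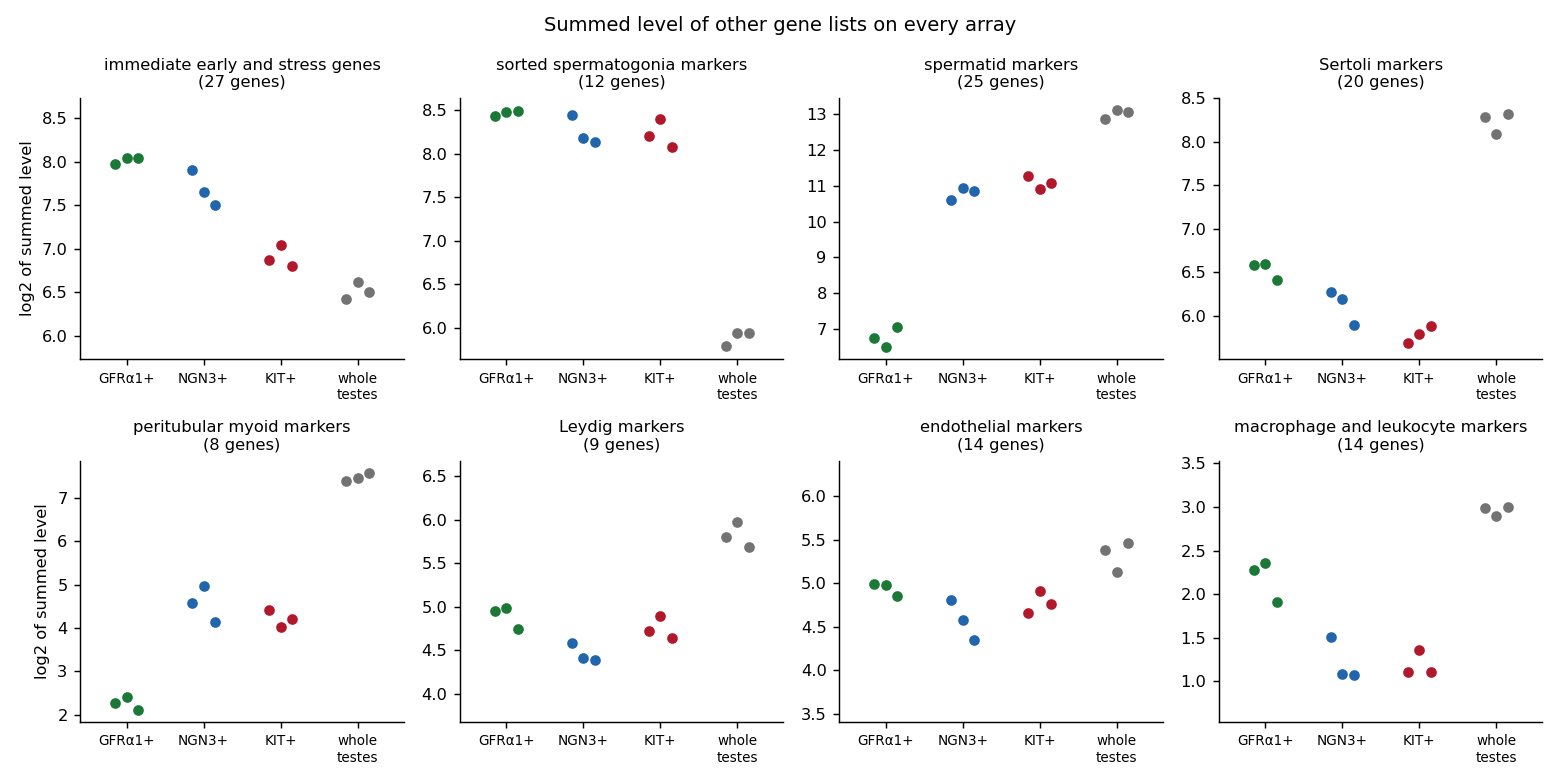
Log2 of the summed level of 8 gene lists on every array, with 1 point an array and 3 arrays a group. Each sum weighs the brightest genes of its list most. The immediate early and stress genes decline from GFRα1+ over NGN3+ to KIT+ cells, the spermatid and peritubular myoid genes are lowest in GFRα1+ cells, and the Sertoli, Leydig, endothelial and macrophage genes are highest in whole testes.

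Markers of cells that could carry Klf2 or Klf4 into the fractions were read in the same way. Of all genes, 36.4% fell and 20% rose at the first step, and 17% fell and 17.5% rose at the second. Of the endothelial genes, 11 were tested at the first step, of which 2 rose and 3 fell. Their summed level was 4.85 to 4.99 in GFRα1+, 4.35 to 4.80 in NGN3+, 4.66 to 4.91 in KIT+ cells and 5.12 to 5.47 in whole testes. A summed level weighs the brightest genes of a list most and does not measure the share of a cell type. In the sorted fractions the endothelial sum was mostly Egfl7 and Kdr. In the same order of groups the means of Egfl7 were 3.99, 3.84, 4.43 and 3.61. Those of Kdr were 3.40, 2.14, 1.88 and 3.17. At the second step, where Klf2 fell, 4 of 12 endothelial genes fell and 2 rose. Cdh5 fell by 2.01, and it was well above background on 2 of the 3 KIT+ arrays. Emcn, Esam and Tie1 were well above background on 0 of 3 GFRα1+ arrays. Of the 14 endothelial genes only these 3 lacked such signal there, whereas 9 had it in each GFRα1+ sample. In NGN3+ cells 11 of the 14 had it in each sample, and in KIT+ cells 9. Among KIT+ samples Tie1 had it in 3 of 3, Esam in 2 and Emcn in 1. The macrophage genes were tested for 7 of 14, with 3 lower and 2 higher at the first step and 2 lower at the second, and their summed level was 1.91 to 2.36, 1.07 to 1.502, 1.10 to 1.36 and 2.90 to 3.00 in the same order of groups. Of the 14, C1qb, Cd14, Cd74, Csf1r and Fcer1g were well above background on every sorted array, and C1qc, Lyz2 and Tyrobp on none. Cd68 was so on none of the 12 arrays, whole testes included. At the first step 11 of 17 Sertoli genes rose and 2 fell, yet their summed level was 6.41 to 6.60 in GFRα1+, 5.89 to 6.28 in NGN3+, 5.68 to 5.88 in KIT+ cells and 8.09 to 8.32 in whole testes. Of the 8 myoid genes 7 rose and none fell there, with summed levels of 2.11 to 2.41, 4.14 to 4.96, 4.03 to 4.41 and 7.39 to 7.58. At the second step, where Klf2, Klf3, Klf7 and Klf13 fell, 5 of 8 myoid genes fell and none rose, with a median ratio of -1.27 against 0.048 for all genes, and 4 of 17 Sertoli genes fell and 1 rose. Leydig genes were tested for 4 of 9 at both steps, with 1 higher and 1 lower at the first and none past the threshold at the second, and of the red blood cell genes 2 were tested, of which Alas2 rose at both steps. Spermatid genes belong here too, since Klf4 is associated with postmeiotic germ cells. At the first step, where Klf4 fell, 24 of 25 rose, with a median ratio of 5.23 against -0.19 for all genes. The part of all these markers in the Klf values was not tested.

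Against whole testes some members were higher and others lower, and in each fraction the counts lay near the background of all genes. In GFRα1+ cells 6 of the 10 members were higher than in whole testes, 3 were lower and Klf9 did not pass, where 49.9% of 24186 genes were higher and 37.5% lower and the median ratio was 0.39. The arrays of all 10 members did not overlap, against 87.3% of all genes. Klf7 was higher by 4.58 ± 0.13 (SE, n = 3 against 3, 23.96-fold, limma adjusted p = 1.49e-10), Klf10 by 4.45 ± 0.13 (21.8-fold, adjusted p = 1.67e-10) and Klf13 by 3.94 ± 0.20 (15.4-fold, adjusted p = 5.50e-09). Klf11 was at least 9.94-fold higher in the main setting (adjusted p = 8.69e-07 for the measured ratio). The bound took, on each whole testes array, the lowest signal well above background, or the signal of Klf11 where that was higher. It depended on the processing, since the log2 ratio of Klf11 was as low as 1.71 among the alternatives. Klf6 was higher by 1.56 ± 0.13 (adjusted p = 4.88e-07) and Klf3 by 0.97 ± 0.14 (adjusted p = 3.81e-05). These ratios compare a purified fraction with a tissue of many cell types, and in bulk RNA fewer cells of a type and less RNA in each cell cannot be told apart.

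Klf5, Klf4 and Klf2 were lower in GFRα1+ cells than in whole testes, with ratios of -1.98 ± 0.16 (3.96-fold, limma adjusted p = 2.82e-07), -1.59 ± 0.13 (3.02-fold, adjusted p = 2.24e-07) and -1.46 ± 0.21 (2.75-fold, adjusted p = 4.36e-05). Within slide 1, where whole testes have 1 array, the ratio of Klf2 was -0.93 (adjusted p = 0.0621), with the spread taken from the 2 GFRα1+ arrays alone. After those of Klf13 (SD 0.43), its levels in whole testes (SD 0.42) were the most spread of the members well above background there.

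NGN3+ cells had 5 members above whole testes and 4 below, where 44.1% and 39.6% of 25345 genes were so. The arrays of 9 members did not overlap, against 86.5% of all genes. Klf7 was higher by 4.22, Klf13 by 3.96, Klf10 by 3.66 and Klf3 by 0.88. Klf11 was at least 10.2-fold higher in the main setting, with a log2 ratio as low as 1.57 among the alternatives. Klf4, Klf5 and Klf2 were lower, with ratios of -2.15, -1.44 and -1.18, and so was Klf6 with -0.42 ± 0.13 (limma adjusted p = 0.0137). With the slide as a block, in which no slide holds both groups, Klf6 (-0.46, adjusted p = 0.160) and Klf2 (-0.49, adjusted p = 0.218) no longer passed.

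KIT+ cells had 4 members above whole testes and 5 below, where 43.3% and 41.6% of 24697 genes were so. The arrays of all 10 members did not overlap, against 87.8% of all genes. Klf10 was higher by 3.62, Klf7 by 2.92 and Klf13 by 2.77. Klf11 was at least 11.15-fold higher in the main setting, with a log2 ratio as low as 1.69 among the alternatives. Klf2, Klf4 and Klf3 were lower, with ratios of -2.48, -1.95 and -1.23, and so were Klf6 and Klf9 with -0.70 and -0.36. The call of Klf9 was lost with the slide as a block (-0.52, adjusted p = 0.0848) and with the mean of both its probes (-0.18, adjusted p = 0.448). Klf5 did not pass, with a ratio of -0.25 (95% interval -0.60 to 0.11), but it passed under normexp (-0.57, adjusted p = 0.000939), with scaling to the bright probes (-0.52, adjusted p = 0.0174) and by the test that the methods name (adjusted p = 0.0316). Klf3 thus lay above whole testes in GFRα1+ and NGN3+ cells and below in KIT+ cells, and Klf6 above in GFRα1+ cells and below in the others. The 3 comparisons share the whole testes arrays.

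**Figure D4:**
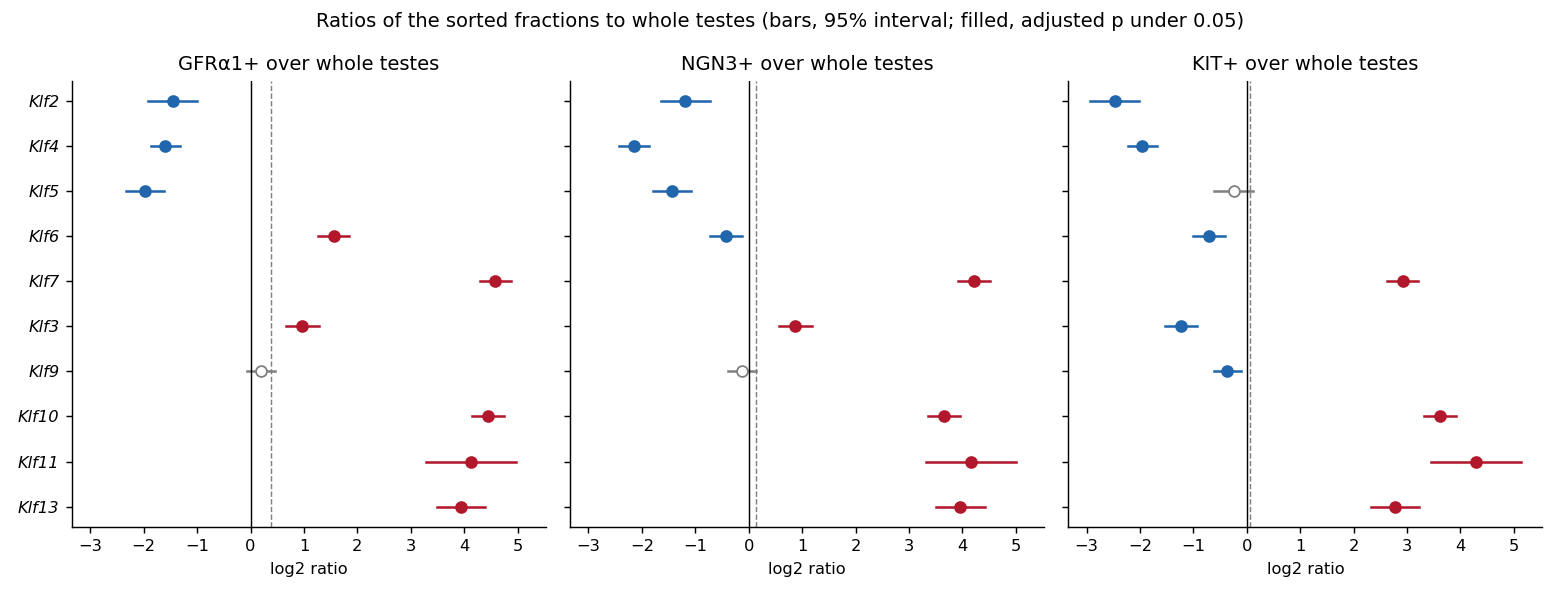
Log2 ratio of each gene between a sorted fraction and whole testes with its 95% interval, from limma's fit of all 12 arrays (n = 3 in each group). Filled points passed an adjusted p under 0.05, red for higher and blue for lower, and the dashed line is the median ratio of all genes tested. Klf7, Klf10, Klf11 and Klf13 lie far to the right in every fraction and Klf2 and Klf4 to the left; the points of Klf11 are measured ratios against a group that was not well above background.

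The genes whose course over the 12 arrays came nearest to a member's were found for the 4 members with the widest range of group means, by the root-mean-square difference of log2 levels after each gene's own mean was taken off, among 18429 genes. For Klf7 these were Cnn3 (0.103), Prxl2b (0.110) and Tubb5 (0.132). For Klf10 the nearest genes included Lbr (0.0889) and Mpped2 (0.0895). For Klf13 they were Pdlim7 (0.143), Smyd3 (0.148) and Praf2 (0.157). For Klf11 they were Ctu1 (0.183), Elapor2 (0.258) and Slc12a9 (0.303), in a measure that includes the Klf11 values not well above background.

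The other 7 genes of the family gave 4 that could be tested between the first fractions. Klf17, a factor of germ cells, stood at -4.51, -3.61 and -3.61 in GFRα1+ cells, where it was well above background on 2 of 3 arrays, and at -0.74, 0.30 and -0.57 in NGN3+ cells. It rose by 3.57 ± 0.36 (SE, limma adjusted p = 6.46e-05) and reached 2.80, 3.12 and 3.05 in whole testes, beside the spermatid genes given above. A second Klf17 probe rose by 1.56 ± 0.48 (limma adjusted p = 0.0228) in the fit over all probes. That probe was well above background on 0 of 3 GFRα1+ arrays. Klf16 fell by 0.39 ± 0.13 (adjusted p = 0.0302) at the first step. Klf8 had a ratio of -0.034 there and fell by 0.52 ± 0.13 at the second (adjusted p = 0.0147), and its ratio of GFRα1+ cells to whole testes was 4.82. Klf12 was at least 2.28-fold lower in KIT+ than in NGN3+ cells (adjusted p = 0.00633), with levels not well above background on any KIT+ array.

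The SP genes, which share the zinc fingers, fell for 5 of 7 tested at the first step, and Sp7 rose from levels not well above background, where 36.4% of all genes fell and 20% rose. Their median ratio was -0.56 against -0.19 for all genes. Sp6 fell by 2.08 ± 0.14 (limma adjusted p = 6.47e-06), Sp2 by 0.89 ± 0.13 (adjusted p = 0.000485), Sp5 by 0.56 ± 0.16 (adjusted p = 0.0175) and Sp4 by 0.40 ± 0.14 (adjusted p = 0.0374). Sp3 passed with -1.61 ± 0.46 (adjusted p = 0.0163), but its GFRα1+ levels were -1.23 and -1.16 on slide 1 and -3.16 on slide 2, next to -3.31, -3.56 and -3.50 in NGN3+ cells on slide 2, and the GFRα1+ array of slide 2 thus lay nearer to the NGN3+ arrays than to the other GFRα1+ arrays. At the second step Sp2 and Sp6 rose by 1.26 and 0.60 and Sp5 and Sp1 fell by 1.06 and 0.44. All 6 SP genes tested against whole testes in GFRα1+ cells were higher there, where 49.9% of all genes were. Of these, Sp5, Sp6 and Sp3 were well above background on 0, 1 and 2 of the 3 whole testes arrays. They were tested only through their GFRα1+ signal, so the filter in part set this count.

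Of the cofactors, all 12 were tested, and 8 fell and none rose from GFRα1+ to NGN3+ cells, where 36.4% and 20% of all genes did. Their median ratio was -0.43 against -0.19 for all genes. Kat2b and Crebbp, both acetyltransferases, fell by 1.04 and 0.73, Ctbp2, a partner of Klf3, by 0.77 and Ep300 by 0.66. At the second step Kat2b fell by a further 1.60 and Ep300 by 0.32, while Sin3b, a partner of the Klf10 branch, rose by 0.87 and Hdac1 by 0.61. Of the regulators of the family, such as ubiquitin ligases, MEF2 factors and nuclear receptors, 9 of 17 fell and 1 rose at the first step, where 36.4% and 20% of all genes did, and their median ratio was -0.43 against -0.19. Nr3c1, the glucocorticoid receptor, fell by 0.89 and Wwp1, a ligase for Klf2 and Klf5, by 1.21. At the second step 5 rose and 3 fell, where 17.5% and 17% of all genes did and the medians were 0.15 and 0.048, with Usp10 falling by 1.71, Smad3 by 1.55 and Stat3 by 1.17.

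Genes described as targets of the family in other tissues moved both ways. At the first step 11 of 22 fell and 4 rose, where 36.4% and 20% of all genes did. Smad7, which Klf10 represses in other cells, fell by 1.59, Tgfb1, a target of Klf6, by 1.22 and Ccnd1 by 0.97. At the second step 6 of 21 fell and 7 rose, against 17% and 17.5% of all genes, with the cell cycle inhibitor Cdkn1b falling by 3.85, Txnip by 1.94 and Tbx3 by 1.73, and Ccnd1, cyclin D1, rising by 1.38. The median of the targets' ratios was -0.43 at the first step and -0.24 at the second, against -0.19 and 0.048 for all genes.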

How the data were processed

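RNA of 12 samples, 3 in each of the groups GFRα1+, NGN3+, KIT+ and whole testes, was measured on 1-colour Agilent mouse arrays annotated on mm9. Labelled RNA was 25 ng from 10000 to 20000 sorted cells or 500000 testis cells. Per the file headers, the deposited intensity values are processed signals, background-corrected by Agilent Feature Extraction (10.7.3.1 on slides 1 and 3, 10.7.1.1 on slide 2; the submitters' processing notes name 10.7.3.1). The authors' deposited log2 values equal the scanner log2 minus the array's 75th percentile up to a constant, and served as an alternative. The 75th percentile intensity ran from 318 to 675 an array. It was 318 to 340 in GFRα1+, 473 to 675 in NGN3+, 568 to 633 in KIT+ and 380 to 422 in whole testes. The number of arrays limits the precision.

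From the intensities, log2 minus the array's 75th percentile was taken, without control and outlier spots, and spots of 1 probe were averaged. Probes were named through accession (26413), symbol (3859) or synonym (735), and 24674 kept the name on the array. Each gene was represented by its probe with the highest mean. A gene was tested if its probe was well above background throughout at least 1 of the compared groups (3 of 3 arrays), with limma 3.58.1 in R 4.3.3 (lmFit and eBayes, Benjamini-Hochberg), over the 9 sorted arrays between fractions and over all 12 arrays against whole testes. The methods used a t-test, which was an alternative. Others were quantile normalization, scaling to probes bright on all 12 arrays, normexp with an offset of 50, filters, the probe rule, the arrays in the fit, the slide, the replicate number and leaving out each sample. The fits were tested on simulated data. Where a probe was not well above background on any array of a group, the fold is a bound in the main setting. It is taken on each array against the lowest signal that was, or against the probe's own signal where that was higher. An exact test of 3 against 3 cannot go below p = 0.1. Samples of a group came from separate mice only where the methods say so, and p-values measure the spread between these samples.

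The members and gene lists were chosen with earlier results of these data known. Of each list the text names up to 4 genes with the smallest adjusted p, all other KLF and SP genes, the 3 genes most like each of 4 members (1 of those for Klf10 is not reported here), and a few genes named after their values were seen: Hspa1a, Alas2, and the endothelial and macrophage genes named by their signal over background. Promoters came from RefSeq.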

Additional observations from a re-analysis of the deposited data

How the results depend on the processing

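Of 60 results, each a member in a comparison, 41 kept their direction and their side of the threshold in every alternative run, and 7 changed sign in at least 1. Of 1057 alternatives 995 changed nothing, 35 lost the threshold, 10 gained it and 17 changed sign. The cause was not tested. With scaling to the 75th percentile of the probes bright on all 12 arrays, 2 members rose from GFRα1+ to NGN3+ and 2 from GFRα1+ to KIT+ cells, and the ratio of Klf9 in GFRα1+ cells over whole testes was -0.21 and that of Klf3 at the first step 0.087. Of the genes called at the first step 35.5% rose in the main setting and 22.9% with the filter on both groups. No member rose at the first step (0) under normexp, the methods' t-test, the slide as a block or slide 2 alone, and 2 were lower in NGN3+ cells than in whole testes with the slide as a block. Leaving out 1 sample gave 0 to 1 members higher at the first step (0 without NGN3+ 2 or 3 or GFRα1+ 1 or 3), 3 to 5 lower, and 3 to 4 lower in NGN3+ cells than in whole testes.

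Signs changed as follows, none of them in a result that passed the threshold except Klf9 at the first step. At the first step Klf11 was -0.027 under quantile normalization and -0.13 under normexp (-0.048 to 0.093 leaving out 1 sample), and Klf13 was -0.087 with the probe mean and -0.095 with the slide as a block or within slide 2 (-0.10 to 0.15 leaving out 1 sample). Klf3 was 0.0073 under normexp and Klf9 0.026 with the probe mean. Klf9 was -0.13 in GFRα1+ cells over whole testes with the probe mean, Klf11 -0.012 from GFRα1+ to KIT+ cells under normexp, and Klf10 -0.12 to 0.035 at the second step leaving out 1 sample. For the difference between the steps, an alternative added after seeing the data, Klf11 was -0.14 with scaling to the bright probes and -0.099 with the slide as a block or within slide 2 (-0.022 to 0.18 leaving out 1 sample). Klf9 was -0.14 with that scaling, -0.040 under normexp and -0.097 with the probe mean (-0.093 to 0.30 leaving out 1 sample).

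Same-numbered samples correlated in their deviations from the group means at -0.58 to 0.29, and no pair of groups had all 3 correlations over 0.1. Equal numbers were therefore not read as pairs. Under other numbers, NGN3+ 1 with KIT+ 2 correlated at 0.56 and NGN3+ 2 with KIT+ 1 at 0.50. The other differently numbered pairs of these groups lay between -0.36 and 0.24. Whether NGN3+ and KIT+ samples shared mice or sorts was not tested. With the replicate block, Klf9 at the first step (-0.32, limma adjusted p = 0.0674) and the step difference of Klf10 (0.75, adjusted p = 0.0535) no longer passed.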

Other observations

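Klf1, the erythroid member of the family, was well above background on 1 of 3 whole testes arrays, with levels of -5.36, -5.17 and 0.55, while the summed level of the red blood cell markers there lay between 3.13 and 3.40 on the log2 scale.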
